A study of Saccharomyces cerevisiae with 2 samples.

Results

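In the yeast genome, 2964 short stretches of 80 to 150 bp were almost free of nucleosome midpoints, and the mean density beside the 2670 with measurable flanks showed a phased row of nucleosomes. These narrow depleted intervals were chosen by their measured values, as stretches in which the smoothed density of midpoints stayed under 0.1 of the nuclear mean and which still held at least 3 midpoints. They were 22.1% of the 13426 intervals of any width under 0.1. Their number rests on the rule, and it was 1763 with a threshold of 0.05, 4514 with 0.2, 1214 with at least 10 midpoints and 939 with 1 read kept per position and strand. Of the other intervals with at least 3 midpoints, 4525 were under 80 bp, 1000 were over 150 and up to 200 bp, and 951 were over 200 bp.

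A nucleosome is DNA wound around an octamer of histones, and it shields that DNA from micrococcal nuclease (MNase), which cuts the linkers between nucleosomes. Yeast promoters and other regulatory sites usually hold a nucleosome-depleted region, and the nucleosomes beside it are known to be among the best positioned of the gene. Further nucleosomes follow at a regular spacing, the nucleosome repeat length, and their positions become less well defined with distance from the depleted region.

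Saccharomyces cerevisiae was grown in YPD, fixed with formaldehyde and digested with MNase, and the mononucleosomal DNA was cut from a gel and sequenced from 1 end. There were 2 libraries of this 1 condition, called replicate 1 and replicate 2 here. The labels give no genotype, and the paper that reported the data lists its yeast nucleosome data under the BY strain. The labels do not say whether the replicate came from a separate culture, so the spread between the libraries may be technical. With 1 condition there was no comparison between treatments, and what follows describes the intervals, the agreement of the libraries and the difference from intervals of other widths, with no p-value.

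The libraries held 21973866 and 19288900 reads, of which 21957427 and 19261599 lay on the 16 nuclear chromosomes. The 5′ end of each read was moved downstream by 47 bp for replicate 1 and by 42 bp for replicate 2 to give a midpoint. Midpoints of both libraries were pooled, smoothed by a Gaussian kernel (SD 20 bp) and divided by the nuclear mean of 3.42 midpoints per bp. A density of 1 is therefore the nuclear average.

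The intervals had a median width of 112 bp, with quartiles at 96 and 129 bp. They covered 334511 bp, which is 2.78% of the nuclear bases, and held 0.0692% of the midpoints. The number of midpoints inside ranged from 3 to 40, with a median of 8, and the lowest density inside had a median of 0.0115. These values follow from the way the intervals were selected and carry no test.

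At the limits of the rule the values ran on without a break. There were 48 intervals of 80 bp with a median of 7.5 midpoints inside, and 42 intervals of 79 bp with a median of 8. There were 28 intervals of 150 bp with a median of 7.5 midpoints, and 30 that were 1 bp wider with a median of 8. The minimum of 3 midpoints left out 630 of the 3594 intervals of the right width, 264 of them with 2 midpoints and 180 with 0, and it kept 304 with 3.

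Depletion was seen in each library, but the intervals were called on the pooled reads of both. Low density in each was therefore largely set by the rule and carries no test. Replicate 1 had 17645 midpoints inside the intervals, with a median of 5 for each interval, and replicate 2 had 10880 with a median of 3. In replicate 1, 33 of the intervals (1.11%) held 0 midpoints, and in replicate 2, 265 (8.94%) did. As that rule makes likely, nearly every interval was low in both libraries, although its exact edges differed. As many bases under 0.1 as above it, or more, were found in 98.9% of the intervals in replicate 1 and in 99.8% in replicate 2, whereas 14.8% and 51.0% lay wholly under 0.1 in the library alone. Sequenced 5′ ends inside the intervals outnumbered midpoints by 4.83 to 1 in replicate 1 and by 4.15 to 1 in replicate 2, so the intervals were not without reads.

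The interval with the fewest midpoints per base was chr16:13532-13681, which held 2 midpoints from replicate 1 and 1 from replicate 2 over 150 bp. The interval with the most was chr8:342214-342309, with 21 and 11 midpoints over 96 bp. Neither passed the filter on flanks described next, so no array was measured beside them. Positions are those of the deposited lines on sacCer2, and since some lines start at 0, the origin of the count may be off by 1 bp. No gene table of this build was used, so the intervals are given without gene names.

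The intervals were spread over all 16 chromosomes, at between 22.6 per 100 kb on chromosome 6 and 26.6 per 100 kb on chromosome 14. Chromosome 1 held 53 of them and chromosome 4 held 395. The outer 20 kb of the chromosomes held 3.61% of the intervals and 5.31% of the nuclear bases. The centres of adjacent narrow intervals were a median of 2910 bp apart. Many had another depleted interval of at least 80 bp close by. Such a neighbour lay within 1 kb on both sides of 357 intervals and on 1 side of 1291 (43.6% of all), and 1316 (44.4%) had none. For 635 intervals (21.4%) it lay within 200 bp, and the smallest gap was 3 bp. Whether these are parts of a wider depleted stretch was not tested. Neighbours share flanks, so the intervals are not independent of each other.

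Flanks were measured to 1 kb outward from each edge. For 2670 intervals both flanks could be used. The other 294 were left out, 6 because a chromosome ended within 1 kb, 124 because the density in a flank passed 10 and 164 because a flank had a stretch of 150 bp or more without any 5′ end.

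On average, a row of maxima followed the edge, and the first 5 were measured. A further maximum, not measured, lay between minima at 815 bp (density 0.999) and 987 bp (1.02). In the mean of all 5340 sides, the first flanking nucleosome stood 81 bp from the edge, and the next maxima stood at 247, 413, 572 and 733 bp. The repeat length, taken as the slope of position on number over these 5 maxima, was 162.9 bp. It was 163.2 bp in replicate 1 and 162.9 bp in replicate 2, with a mean of 163.05 ± 0.21 bp (SD, n = 2). The first maximum lay at 81 and 80 bp in the libraries, a mean of 80.5 ± 0.71 bp (SD, n = 2). Both libraries were read at the intervals called from pooled reads, so these SDs leave out the spread of the calls. With intervals called in 1 library alone, the first maximum lay at 83 bp in replicate 1 and 79 bp in replicate 2. The repeat length was then 162.9 and 162.6 bp. Over the 16 chromosomes the first maximum ranged from 79 to 84 bp and the repeat length from 159.7 bp on chromosome 11 to 169.5 bp on chromosome 14, a wider range than that between the libraries, from far fewer intervals for each value.

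**Figure D1:**
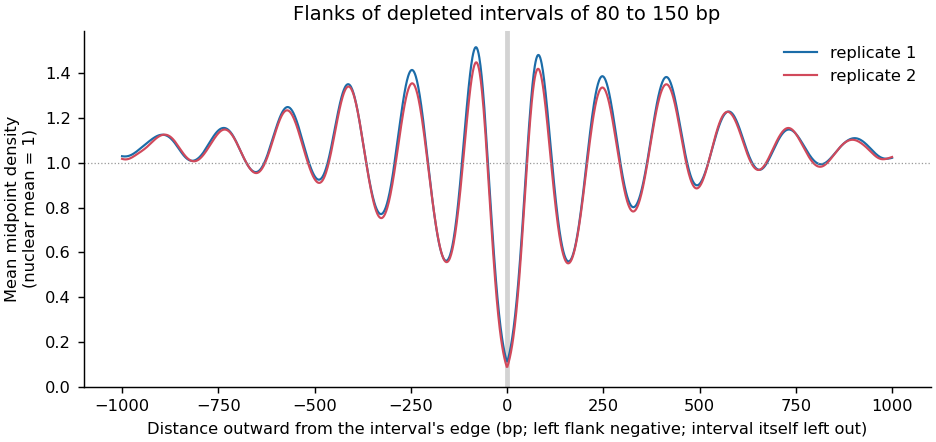
Mean midpoint density (nuclear mean = 1) against distance outward from the edge in bp, for 2670 depleted intervals of 80 to 150 bp, with the left flank at negative distances and 1 line for each library. Maxima stand at 81, 247, 413, 572 and 733 bp in the libraries added, and they become lower outward on both sides.

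The array lost contrast with distance. The density at the 5 maxima was 1.47, 1.38, 1.36, 1.24 and 1.15, and the density at the minima between them was 0.558 at 158 bp, 0.778 at 328 bp, 0.907 at 491 bp and 0.963 at 653 bp. The height of a maximum was taken over the mean of its neighbouring minima, and for the first over its outer minimum alone. The heights were 0.911, 0.708, 0.515, 0.301 and 0.172. Each height was therefore on average 0.657 of the one before, by a straight line through the logarithms of all 5. At these shared intervals the ratio was 0.650 in replicate 1 and 0.666 in replicate 2 (mean 0.658 ± 0.011, SD, n = 2). With intervals called in 1 library alone, it was 0.675 in replicate 1 and 0.597 in replicate 2, a wider spread in the other direction. Over the chromosomes it ranged from 0.585 on chromosome 14 to 0.777 on chromosome 16. The minima rose more than the maxima fell, so that the troughs filled in toward the nuclear mean. The first maximum is in part set by the rule, because the density has to rise past 0.1 at the edge, whereas the maxima beyond it were not used to choose the intervals.

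The left and right flanks, in the sense of the deposited coordinates, had closely similar mean arrays. Both had their first maximum at 81 bp, and the repeat length was 163.2 bp on the left and 162.6 bp on the right.

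The array stood out about as clearly when intervals were aligned on their centre as on the near edge, and less clearly on the far edge. Aligned on the near edge, the heights of the 5 maxima were 0.911, 0.708, 0.515, 0.301 and 0.172. Aligned on the centre they were 0.861, 0.702, 0.512, 0.301 and 0.176, so that only the first differed by much. Aligned on the far edge they were 0.688, 0.613, 0.444, 0.264 and 0.159. Near alignment uses the edge that the rule placed beside the first nucleosome, so the larger first height there is in part built in.

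The distance from the edge to the first nucleosome was nearly the same at all widths within the class. The first maximum stood at 82 bp for 811 intervals under 100 bp, at 81 bp for 805 intervals of 100 to under 120 bp and at 80 bp for 1054 intervals of 120 to 150 bp. The distance across the interval between the highest points on either side therefore grew with width, with medians of 272, 278 and 304 bp in the same order. The repeat length was 164.5, 164.2 and 161.6 bp, and the ratio of successive heights was 0.629, 0.639 and 0.695. In the plot of rows by width the first nucleosome lies farther out in the wider intervals, with further bands beyond it.

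**Figure D2:**
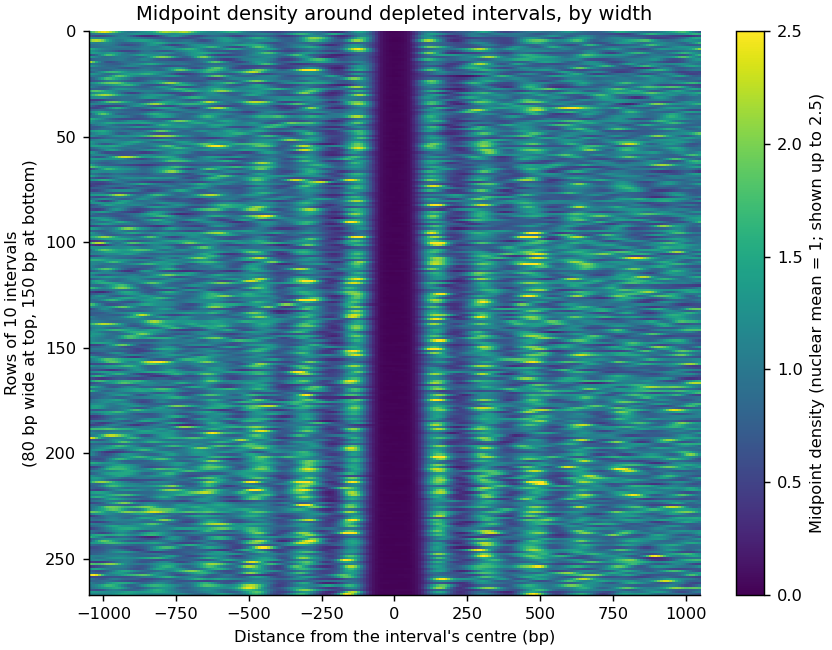
Midpoint density (colour, nuclear mean = 1, shown up to 2.5) against distance from the interval's centre in bins of 10 bp, for 267 rows that each average 10 depleted intervals of adjacent width, 80 bp at the top and 150 bp at the bottom. The dark central band is the interval, which the rule selected, and the bright bands beside it are the flanking nucleosomes, which fade outward.

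Single sides varied far more than the mean profile shows. The highest point within 160 bp of an edge stood at a median of 82 bp, with quartiles at 67 and 111 bp, and on 13.4% of sides it stood at the 160 bp limit of the search. Its density had a median of 1.37, but it was under 1 on 36.9% of sides, under 0.5 on 15.3% and over 3 on 17.4%. An edge of a depleted interval was thus not always followed by a strongly occupied nucleosome. The libraries placed the same point a median of 4 bp apart, within 10 bp on 77.6% of sides and within 20 bp on 87.9%. Between the highest points on the left and on the right the median distance was 287 bp, with quartiles at 256 and 332 bp.

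To see whether the arrays themselves fade or only their alignment, the flank was divided into 6 windows of 1 repeat (163 bp). In each window the phase of the periodic component was read for each side, and the coherence of these phases across sides was computed, which is 1 where all sides are in phase and 0 where they cancel. Coherence was 0.543 in the window next to the edge and 0.285, 0.208, 0.122, 0.0519 and 0.0193 in the following windows. It fell likewise in each library, to 0.0239 in the outermost window of replicate 1 and 0.00873 in that of replicate 2.

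The periodic component of single sides fell much less over the same windows. Its median amplitude relative to the mean density was 0.839 next to the edge and 0.803, 0.748, 0.712, 0.705 and 0.703 farther out. The phases that the libraries gave for the same side also agreed as well far from the edge as near it, with an agreement of 0.891 in the innermost window and 0.887 in the outermost. Between 90.8% and 91.6% of sides had phases within 20.4 bp, an eighth of a repeat, in the libraries. In the other width classes this share was between 89.3% and 92.5%, so the agreement was not particular to the narrow intervals. At 816 to 978 bp from the edge the nucleosomes of a given interval were therefore still placed alike in both libraries. Those of different intervals, taken all together, were hardly in step there. In intervals without a neighbouring depleted interval, described below, some coherence (0.0780) remained in that window. A window of 1 repeat gives a large amplitude wherever a single positioned nucleosome stands, so this amplitude does not measure spacing, and any cutting preference of MNase is shared by the libraries and its part was not tested.

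**Figure D3:**
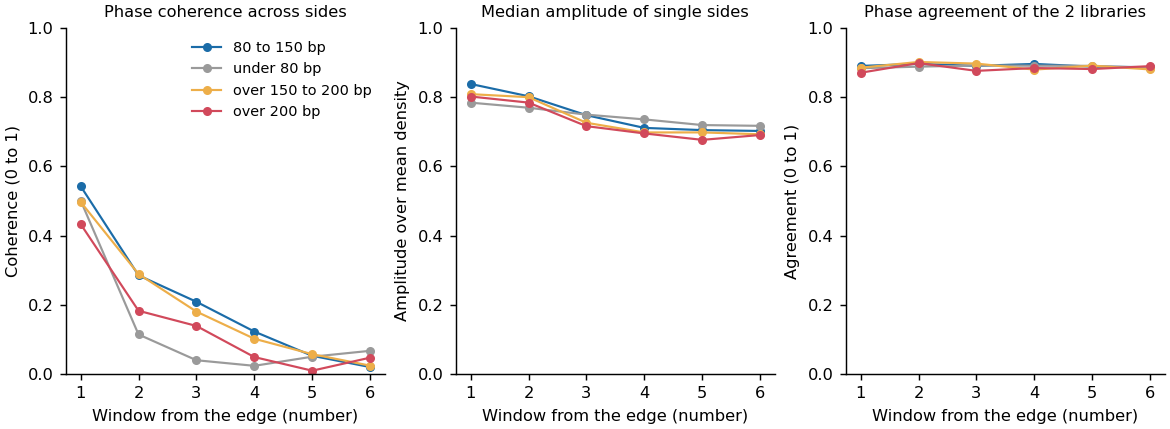
Phase coherence across sides (left), median amplitude of single sides over their mean density (centre) and phase agreement of the 2 libraries (right) in 6 windows of 163 bp outward from the edge, for intervals of 80 to 150 bp and 3 other width classes. In the class of 80 to 150 bp coherence is 0.543 in the first window and 0.0193 in the last, while the agreement of the libraries is 0.891 and 0.887.

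Neighbouring depleted intervals moved with these values. In the 1264 measured intervals with no other interval of at least 80 bp within 1 kb, coherence was 0.616, 0.401, 0.326, 0.213, 0.140 and 0.0780 over the 6 windows, and the ratio of successive heights was 0.716. In the 1406 with such a neighbour, coherence was 0.479, 0.183, 0.103, 0.0400, 0.0279 and 0.0349, and the ratio was 0.578. The repeat length was 164 bp without and 159.6 bp with a neighbour. An interval without neighbours has filled flanks by construction, so these values describe the groups and carry no test.

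Which other width class the narrow intervals were most like depended on the measure. Coherence in the first window was 0.543 for the narrow intervals and 0.497 for intervals over 150 and up to 200 bp. It was 0.433 for intervals over 200 bp and 0.501 for intervals under 80 bp. Coherence in the second window was 0.285 for the narrow intervals, against 0.289 for intervals over 150 and up to 200 bp, 0.182 for intervals over 200 bp and 0.114 for intervals under 80 bp. The repeat length was 162.9 bp for the narrow intervals, against 161.7 bp for those over 150 and up to 200 bp, 164.1 bp for those over 200 bp and 156.6 bp for those under 80 bp. The ratio of successive heights was 0.657, against 0.684, 0.687 and 0.524 in the same order. The first maximum stood at 81 bp, against 80, 82 and 84 bp, and the fifth at 733 bp, against 726, 736 and 708 bp. The repeat lengths of all these classes except that under 80 bp lay within the range over chromosomes given above. The classes were cut from 1 density and share flanks, so no test of these differences was made.

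The sides of a single interval were often unlike each other. The periodic amplitude of a side at the repeat length, over 50 to 1000 bp from the edge and relative to the mean density there, had a median of 0.476, with 0.468 in replicate 1 and 0.490 in replicate 2. The larger side exceeded the smaller by a median of 1.54-fold, and by at least 2-fold in 822 intervals (30.8%). Left and right amplitudes were almost unrelated across the 2670 intervals (Pearson r = 0.068), while the mean densities of the sides had r = 0.23. These correlations are a description over intervals that share libraries and, in part, flanks. The left side was the stronger in 1323 intervals (49.6%, exact 95% binomial interval 47.6 to 51.5%), close to an even split. Left and right are only directions of the deposited coordinates. The binomial interval counts intervals that share flanks as independent, so it carries no verdict.

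Which side was stronger recurred between the libraries. In 2317 of the 2670 intervals (86.8%, exact 95% binomial interval 85.4 to 88.0%) the same side had the larger amplitude in both. Over all 11709 measured intervals of any width under 0.1 the share was 86.4%, so the narrow intervals were close to this background. By class the share was 86.8% for the narrow intervals, against 86.8% for those over 150 and up to 200 bp, 85.3% for those over 200 bp and 85.5% for those under 80 bp. Agreement rested on intervals with unequal sides. It was 96.3% among the 2069 whose sides differed at least 1.2-fold in the added reads and 54.1% among the other 601, though the added reads contain both libraries and this split favours agreement among the more unequal ones by construction.

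The stronger side was named in 1 library and read in the other. This keeps the counting error of the choice out of the values, but the same flank and the same periodicity are read again, so a stronger array on that side is what the choice looks for and the values are a description. Read in replicate 2, the stronger side by replicate 1 had a median amplitude of 0.618 and the weaker side 0.372, and the median ratio within an interval was 1.51. The mean heights of the 5 maxima were 1.00, 0.800, 0.644, 0.462 and 0.309 on the stronger side, against 0.761, 0.571, 0.382, 0.143 and 0.0408 on the weaker side. The sides thus differed least, as a ratio, at the first nucleosome and most at the fifth. The ratio of successive heights was 0.748 on the stronger side and 0.485 on the weaker side. With the choice made in replicate 2 and the values read in replicate 1, these ratios were 0.715 and 0.539, and the fifth height was 0.280 on the stronger side and 0.0676 on the weaker side.

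Amplitude is relative to the mean density of the side, so the choice of the stronger side does not favour the fuller one. In replicate 2 its first nucleosome was the higher in 51.5% of intervals and its mean density the higher in 51.7%. Another depleted interval of at least 80 bp lay within 1 kb of 32.9% of stronger sides and 29.2% of weaker sides. Read in replicate 2, the first maximum stood at 80 bp on both sides and the fifth at 731 bp on the stronger side and 736 bp on the weaker side. Read in replicate 1, the first stood at 81 bp on the stronger and 82 bp on the weaker side, and the fifth at 732 and 749 bp in the same order.

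**Figure D4:**
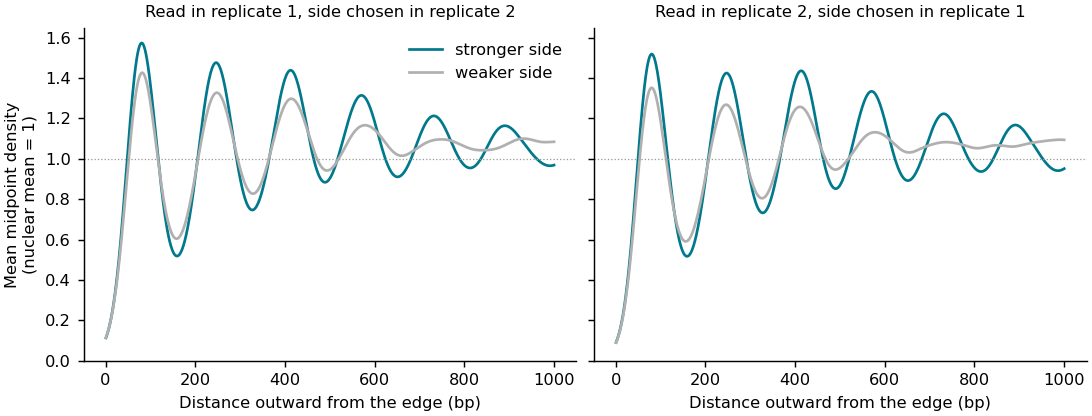
Mean midpoint density (nuclear mean = 1) against distance outward from the edge in bp for the stronger and the weaker side of 2670 intervals, with the side chosen in 1 library and the density read in the other. Both sides start with a maximum near 80 bp, and by the fifth maximum the height over the minima is 0.309 on the stronger and 0.0408 on the weaker side when read in replicate 2.

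Individual intervals show what these averages are made of. Beside chr8:517323-517462, an interval of 140 bp with 5 midpoints from replicate 1 and 2 from replicate 2, both flanks held strong maxima, with amplitudes of 0.966 on the left and 0.890 on the right. On the right, maxima stood at 79, 255, 402, 560, 724 and 892 bp in replicate 1 and at 85, 254, 403, 564, 727 and 893 bp in replicate 2. Every one of the 6 nucleosomes was thus placed within 6 bp in the libraries. Their densities were 4.49, 4.35, 2.90, 3.56, 4.80 and 2.92 in replicate 1 and 4.67, 5.40, 3.25, 2.74, 4.21 and 2.92 in replicate 2, with the fifth maximum about as high as the first. On the left, maxima stood at 81, 257, 421 and 579 bp in replicate 1 and at 84, 259, 423 and 581 bp in replicate 2, and the next came only at 883 and 907 bp, so that a place in the row was skipped.

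At chr4:497461-497598 the sides were unequal, with an amplitude of 0.945 on the left and 0.083 on the right. The left flank had maxima at 62, 230, 417, 552, 732 and 903 bp in replicate 1 and at 68, 224, 419, 553, 731 and 902 bp in replicate 2. On the right flank the listed maxima stood at 96, 275, 449, 578, 720 and 831 bp in replicate 1. In replicate 2 they stood at 100, 280, 464, 569, 722 and 834 bp. No side had more than 6 maxima listed, and listed maxima were at least 100 bp apart. A further maximum, seen in both libraries near the outer end of the right flank, is therefore not among them. The listed maxima were unevenly spaced on the right, but the spacing on the left varied as well. The right side was thus occupied, with a low amplitude at the repeat length. Its first nucleosome reached a density of 1.09 and 1.61 in the libraries, against 2.58 and 3.03 for that on the left.

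**Figure D5:**
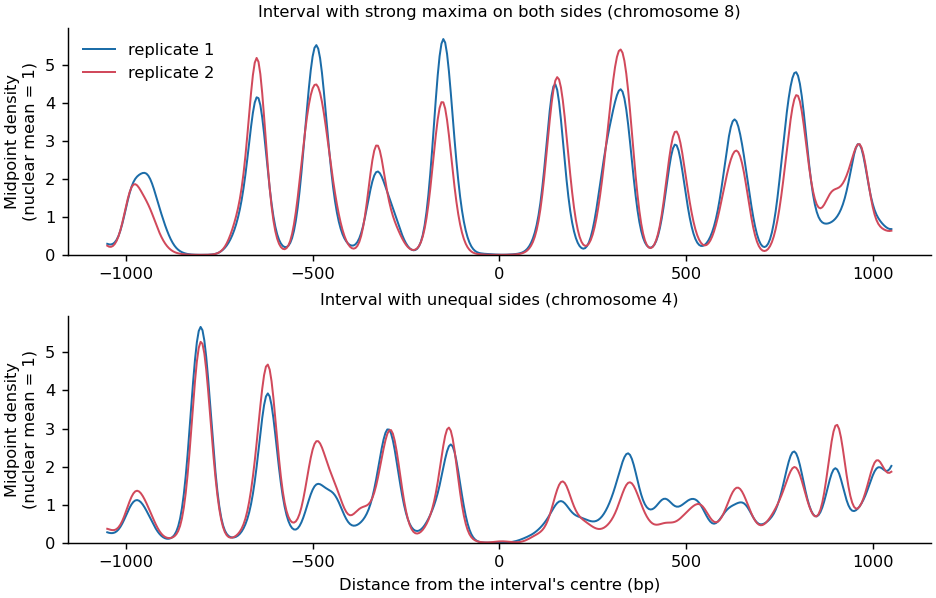
Midpoint density (nuclear mean = 1) against distance from the interval's centre in bp in each library, for the interval on chromosome 8 with side amplitudes of 0.966 and 0.890 (top) and that on chromosome 4 with amplitudes of 0.945 on the left and 0.083 on the right (bottom). The maxima of the libraries lie close together on the right of the top interval, in the first 4 maxima on its left, and on the left of the bottom interval.

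Both of these came from the list of intervals with the largest amplitudes or side differences and were picked from it after their values were seen. The other intervals with large amplitudes on both sides were chr5:99504-99615, chr9:97182-97302, chr9:411902-412032, chr15:139095-139230 and chr2:494132-494268. A large amplitude did not always mean a row of nucleosomes. On the right of chr5:99504-99615 the amplitude was 0.959, but in replicate 1 the maxima fell off as 7.30, 3.02, 1.15 and 0.475, so that the nucleosome next to the edge carried most of the density. The interval with the largest side difference was chr15:978081-978168, with amplitudes of 0.110 on the left and 1.17 on the right. That right flank was nearly empty, with no maximum above 0.318 in replicate 1 or 0.243 in replicate 2 until a single nucleosome at 990 and 992 bp with densities of 4.18 and 4.45.

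The other intervals with a large difference were chr14:65256-65360, with 0.938 on the left and 0.017 on the right, and chr4:458475-458578, with 0.957 on the left and 0.059 on the right. Beside chr4:458475-458578 the regular left side had almost no nucleosome next to the edge, with a density of 0.148 in replicate 1 and 0.0689 in replicate 2 at 12 bp. It then had maxima at 316, 489, 662, 822 and 963 bp in replicate 1, with 4.86 at 662 bp, and at 323, 492, 661 and 826 bp in replicate 2, with 8.06 at 661 bp. On the right the first nucleosome stood at 90 and 88 bp with densities of 2.92 and 3.34, and the next stood apart in the libraries, the second at 257 and 198 bp and the third at 464 and 512 bp. The fourth, at 753 and 748 bp, and the fifth, at 853 and 862 bp, stood close together.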

How the data were processed

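Per the labels, MNase-digested mononucleosomal DNA was sequenced from 1 end in 2 libraries. The deposited lines give the position and strand of each read and no score. The submitters' processing notes name sacCer2, and the aligner is not given in the sources used here. Each line spans 150 bp in the deposited lines, and repeated positions had not been removed.

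Midpoints were made as described, and chromosomes 1 to 16 were used. The moves of 47 and 42 bp were fixed settings of the rule and were not estimated here. Side shares carry exact 95% binomial intervals, which cover counting error only and treat intervals that share flanks as independent. PCR copies are not independent molecules. Flanks were left out as described. Intervals were named by rule, being those with the fewest and the most midpoints per base, the 6 with the largest smaller-side amplitude and the 4 with the largest side difference of the same sign in both libraries, with at least 0.3 reads per base in each flank and at most 2 from a chromosome. The widths at the limits were given as counts. The members and lists were chosen with earlier results of these data known. The alternatives without a limit on flank density and without neighbours were added after seeing the data. The scripts were tested on simulated data. Python 3.11.15, numpy 2.4.6, scipy 1.17.1, pandas 2.3.3 and matplotlib 3.10.9 were used.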

Additional observations from a re-analysis of the deposited data

How the results depend on the processing

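The number of intervals (2964) was 1763 with a threshold of 0.05 and 4514 with 0.2, 1214 with at least 10 midpoints, 939 with 1 read per position and strand, and 1316 without neighbours, and it was 3825 and 2070 with a smoothing SD of 10 and 30 bp and 2439 with a move of 73 bp. It ranged from 2094 to 2108 when either library was left out. The first maximum (81 bp) was at 65 bp with a smoothing SD of 10 bp, 101 bp with 30 bp, 91 bp with a threshold of 0.05, 70 bp with 0.2, 112 bp with a move of 73 bp, 93 bp with 1 read per position and strand, 84 bp with at least 10 midpoints and 78 bp with the median over intervals, and it ranged from 79 to 83 bp with 1 library left out. The edge-to-nucleosome distance is therefore tied to the smoothing, the threshold and the move. The repeat length (162.9 bp) moved little, with 163.2 bp at a smoothing SD of 10 bp and at a threshold of 0.2, 161.5 bp at 30 bp, 161.7 bp with a move of 73 bp, 158.8 bp with at least 10 midpoints, 163.5 bp with the median, 166 bp by autocorrelation, 164 bp without neighbours, and 162.6 to 162.9 bp with 1 library left out. The height ratio (0.657) was 0.629 and 0.693 with a smoothing SD of 10 and 30 bp, 0.698 and 0.601 with thresholds of 0.05 and 0.2, 0.645 with a move of 73 bp, 0.684 with 1 read per position and strand, 0.643 without the outer 20 kb and chromosome 12, 0.711 with the median, 0.716 without neighbours, and 0.597 to 0.675 with 1 library left out. The share with the same stronger side (86.8%) was 77.6% with a move of 73 bp and 84.4% with at least 10 midpoints. It ranged from 87.1 to 87.2% when intervals were defined in 1 library alone. Under the other alternatives that used the amplitude it lay between 85.7 and 87.5%. With the side named by the height of its first nucleosome, which is another measure and often another side, the share was 87.6%. The cause of these shifts was not tested. The remaining alternatives moved the other results less. The choices without neighbours and without a limit on flank density were made after seeing the data. At a median of 8 midpoints inside, an interval's exact edge is not well determined.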
